A study of Sus scrofa with 48 samples.

Results

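The tumor necrosis factor (TNF) ligands, their receptors and the TRAF adaptor proteins were described in the whole blood of pigs from a low and a high line, bred apart for their residual feed intake (RFI). RFI is the feed an animal eats beyond what its growth and maintenance predict, so that low RFI pigs are the efficient ones. Members were the array spots whose gene name begins with TNFSF or TNFRSF and a digit, is TRAF1 to TRAF5, or is 1 of the names CD40, CD40LG, CD27, CD70, FAS, FASLG, LTBR, TNF, LTA and LTB. The rule found 53 of the 60306 non-control spots, under 26 of the 14606 gene names on the array. Of these, 41 spots were in the deposited log2 table and gave a value to 20 genes, among 37113 probes and 10946 named genes tested. The other 12 spots are given only by whether the scanner software called them well above background.

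The pigs were castrated males of the French Large White breed, and 24 of each line were studied. In each line 12 pigs received a low-fat, low-fiber diet (LF) rich in cereals, and 12 received a high-fat, high-fiber diet (HF) in which oils and straw replaced part of the cereals. The 4 groups are therefore low RFI HF, low RFI LF, high RFI HF and high RFI LF. All blood was drawn at slaughter, at 132 days of age. Each pig had its own single-colour array, and a value here is the log2 of a spot's intensity relative to the median of its array. Each of the 6 slides carried 2 arrays of every group, and no non-control spot was saturated. Between 40771 and 46727 spots per array were well above background, with group medians of 43086.5 to 44221.0. The deposited column of the pig high RFI HF replicate 1 repeats 1 value, and its values were rebuilt from its scanner file. Leukocytes, red cells and platelets all contributed RNA, so that fewer cells of a type and less RNA per cell cannot be told apart.

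TNF ligands are mostly trimeric proteins on the cell surface that can be shed, and they signal by clustering their receptors. Receptors with a death domain, such as FAS and TNFRSF1A, can start apoptosis. Others, such as CD40, CD27 and TNFRSF1B, recruit TRAF adaptors and switch on NF-κB, which controls survival and activation of lymphocytes. In blood, the CD40, BAFF (TNFSF13B) and lymphotoxin branches are known for B cell survival and lymphoid organ structure, and the CD27 branch for T cell memory.

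Names were checked first. Of the 53 member spots, 26 carried an accession found in the RefSeq table of Sscrofa11.1, and for 24 of them the symbol was the name on the array. The other 2 were the spots named TNFRSF8, whose accession belongs to TNFSF8, the ligand of the CD30 receptor. They are called TNFSF8 here. The spot named TNFRSF4 had the same 60 bases as a spot named TNFSF4, the OX40 ligand, and the RefSeq table lists TNFRSF4 as an older synonym of TNFSF4. The lines below show that shared sequence.

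TNFSF4 probe and the probe named TNFRSF4: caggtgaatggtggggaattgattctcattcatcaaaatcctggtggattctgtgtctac

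By sequence the array therefore held 12 ligand names, 11 receptor names and 3 adaptors, and 9, 8 and 3 of them had a retained probe.

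Between the lines, CD40 and TNFSF13B were underexpressed and LTB was overexpressed in low RFI pigs. CD40 is a receptor through which T cells help B cells. TNFSF13B, also called BAFF, is a B cell survival factor made mainly by myeloid cells, and LTB, or lymphotoxin beta, is the membrane anchor of the lymphotoxin heterotrimer. These 3 of 20 genes had an adjusted P-value under 0.05 for line, or 15% of the members, and 3.29% of all genes tested passed in either direction. One member was higher, where 1.65% of all genes were called higher, and 2 members were lower, where 1.64% were called lower. The other 17 genes differed by −0.19 to 0.22 on the log2 scale, with standard errors (SE) of 0.057 to 0.13. The LTB call needed its probe 2, which may read the strand opposite to the LTB transcript, and was lost with probe 1 alone (adjusted P-value 0.0645). The median difference of the 20 members was −0.01 on the log2 scale, compared with 0.03 over all genes. Under the criterion of the study's methods, a P-value under 0.01 and a fold change (FC) above 1.1, TRAF5 was added, for 4 of 20 members, and 6.19% of all genes met it.

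**Figure D1:**
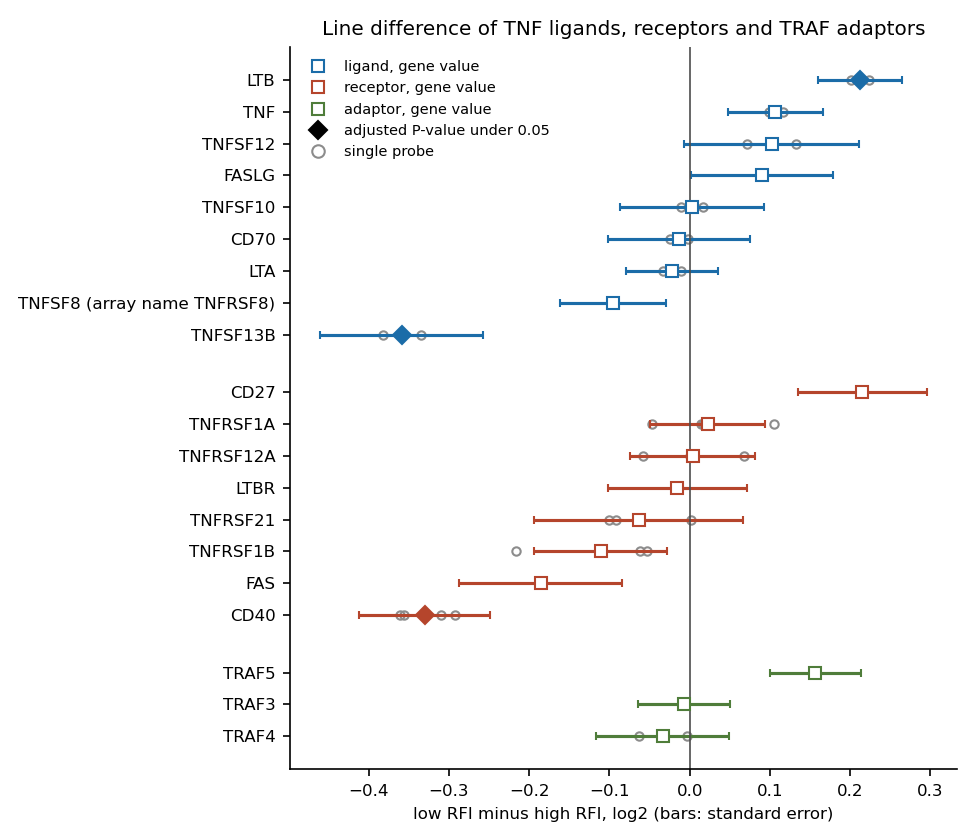
Difference between low RFI and high RFI pigs for the 20 measured genes, as gene value (squares or diamonds, with SE) and single probes (open circles), on the log2 scale. Diamonds mark the 3 genes with an adjusted P-value under 0.05: LTB at 0.21, TNFSF13B at −0.36 and CD40 at −0.33.

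Among the receptors, CD40 had the largest difference. It was measured by 4 probes, of which probe 1 is shown because it lies apart from the others and overlaps none of them.

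CD40 probe 1: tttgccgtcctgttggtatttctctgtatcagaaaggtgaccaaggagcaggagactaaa

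In low RFI HF pigs the CD40 value ran from 2.98 through a median of 3.50 to 4.31, and in low RFI LF pigs from 2.98 through 3.44 to 4.16. In high RFI HF pigs it ran from 3.44 through 3.77 to 4.01, and in high RFI LF pigs from 3.59 through 4.01 to 4.13. The lines overlapped, yet 20 of 24 low RFI pigs were under the median of the high RFI pigs. The low RFI mean was 3.53 ± 0.37 and the high RFI mean 3.86 ± 0.18 (SD, n = 24 each), so that the low RFI pigs were also the more spread. The difference of −0.33 on the log2 scale (SE 0.08, FC −1.26) had an adjusted P-value of 0.0122 by limma.

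All 4 CD40 probes gave a lower value in low RFI pigs, by −0.29 to −0.36 on the log2 scale, each with an adjusted P-value under 0.05 over all probes. Probe 1 differed by −0.29 (SE 0.08, adjusted P-value 0.029). Probes 2 and 3 share 51 of their 60 bases, so that they are not independent measurements. Over all members, 6 of 41 probes were called for line, or 14.6%, compared with 2.77% of all probes. Of these 6, 4 were the CD40 probes, and the others were TNFSF13B probe 1 and LTB probe 2. The share thus counts CD40 repeatedly. Within slides the CD40 difference was negative on 6 of 6, from −0.70 to −0.05.

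The CD40 difference was −0.45 (SE 0.12) under the LF diet and −0.21 (SE 0.12) under the HF diet. The test of that contrast did not pass (interaction 0.24, P-value 0.14).

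B cell markers are given beside CD40. Of 9 listed B cell genes 6 were measured, and 3 were underexpressed in low RFI pigs, among them MS4A1, which encodes CD20, and BLNK, an adaptor of B cell receptor signalling. MS4A1 differed by −0.36 on the log2 scale (SE 0.07) and BLNK by −0.23 (SE 0.06). The other 3 did not pass, with CD79A at −0.14, CD79B at −0.19 and CR2 at 0.02. The mean of the 6 markers ran from 0.73 to 1.87 in low RFI pigs and from 1.20 to 1.70 in high RFI pigs. Their part in the CD40 difference was not tested.

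**Figure D2:**
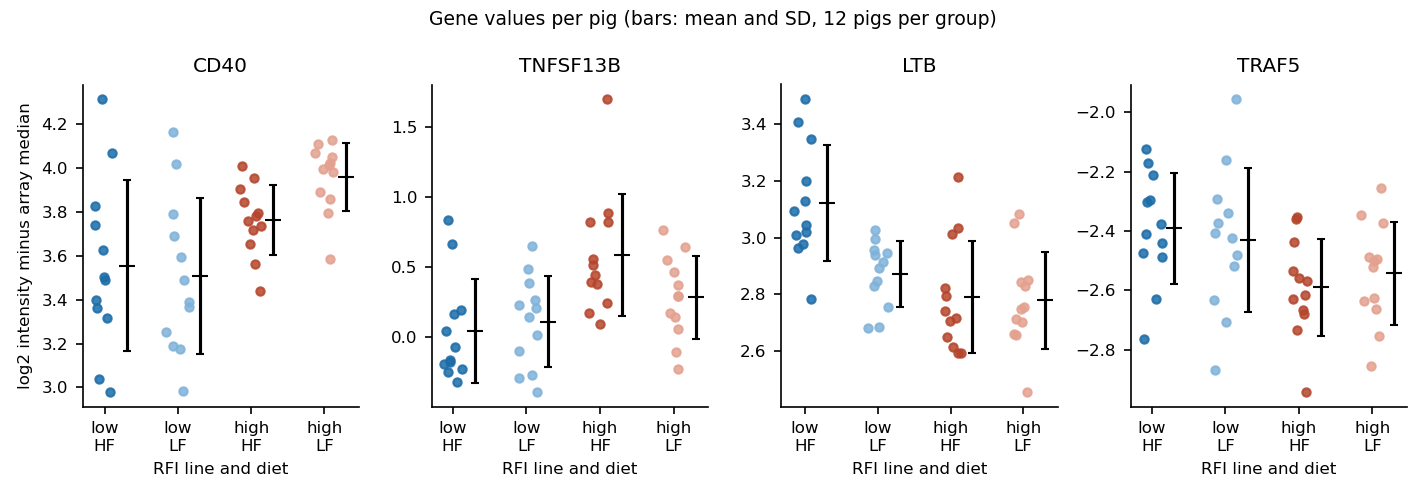
Gene values of CD40, TNFSF13B, LTB and TRAF5 for each of the 48 pigs by RFI line and diet, as log2 intensity minus the array median, with mean and SD of 12 pigs. The low RFI groups sit lower for CD40 and TNFSF13B, and low RFI HF sits highest for LTB with a mean of 3.12.

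TNFSF13B had the largest difference of the 20 genes. It was measured by 2 probes without shared sequence, and probe 1, whose adjusted P-value for line passed on its own, is shown.

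TNFSF13B probe 1: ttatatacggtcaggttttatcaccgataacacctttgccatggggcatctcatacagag

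The TNFSF13B value ran from −0.32 through a median of −0.12 to 0.84 in low RFI HF pigs and from −0.39 through 0.18 to 0.66 in low RFI LF pigs. It ran from 0.10 through 0.48 to 1.70 in high RFI HF pigs and from −0.23 through 0.30 to 0.77 in high RFI LF pigs. The lines overlapped, with 20 of 24 low RFI pigs under the median of the high RFI pigs. The low RFI mean was 0.08 ± 0.34 and the high RFI mean 0.44 ± 0.40 (SD, n = 24 each). The difference was −0.36 on the log2 scale (SE 0.10, FC −1.28, adjusted P-value 0.035).

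Probe 1 differed by −0.38 (SE 0.10, adjusted P-value 0.0255) and probe 2 by −0.33 (SE 0.11, adjusted P-value 0.0809). A spot with no gene name carries the same 60 bases as probe 2, and its line difference was −0.32 (SE 0.10). The SD over pigs of the difference between these identical spots was 0.12, compared with an SD of 0.43 for probe 2 itself. On 5 of 6 slides the difference was negative, and it ran from −0.79 to 0.09.

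Under the HF diet the line difference of TNFSF13B was −0.54 (SE 0.14), and under the LF diet it was −0.17 (SE 0.14). The interaction of −0.37 (SE 0.20) had a P-value of 0.0751, so that the lines' contrast was not shown to depend on the diet. High RFI HF, the group with the highest mean at 0.59 ± 0.44 (SD, n = 12), also held the single highest pig at 1.70.

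Neutrophil and monocyte markers are given beside TNFSF13B. Of 8 listed neutrophil genes 5 were measured, and CXCR2, a chemokine receptor that draws neutrophils to tissue, was the member called, at −0.42 (SE 0.12). The calcium-binding proteins S100A8, S100A9 and S100A12 had differences of −0.41 to −0.46 with SE of 0.22 to 0.27 and did not pass. MMP9, a matrix protease stored in neutrophil granules, was at 0.17 (SE 0.12) and did not pass either. The mean of the neutrophil markers ran from 2.34 to 5.15 in low RFI and from 2.85 to 5.45 in high RFI pigs. Of 7 monocyte genes 6 were measured, and CD14, the lipopolysaccharide coreceptor, was the one called, at −0.47 (SE 0.13). The other monocyte markers did not pass, with CD163 at −0.14, VCAN at −0.11, CD68 at 0.01, FCGR1A at 0.04 and CSF1R at 0.09, so that 3 of the 6 were lower and 3 higher. The mean of the monocyte markers ran from −0.91 to 0.08 in low RFI and from −0.76 to 0.33 in high RFI pigs. The part of these cells in the TNFSF13B difference was not tested.

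LTB was the member overexpressed in low RFI pigs. Its value ran from 2.78 through a median of 3.07 to 3.49 in low RFI HF pigs and from 2.68 through 2.90 to 3.03 in low RFI LF pigs. In high RFI HF pigs it ran from 2.59 through 2.73 to 3.21 and in high RFI LF pigs from 2.45 through 2.75 to 3.08. By median the low RFI HF group stood highest, and the low RFI LF group lay between it and both high RFI groups. The groups overlapped, and 22 of 24 low RFI pigs were above the median of the high RFI pigs. The means were 2.997 ± 0.21 (SD, n = 24) and 2.78 ± 0.18 (SD, n = 24), and the difference of 0.21 on the log2 scale (SE 0.05, FC 1.16) had an adjusted P-value of 0.0115. On 6 of 6 slides it was positive, from 0.04 to 0.38. By diet, the line difference of LTB was 0.33 (SE 0.07) under HF and 0.09 (SE 0.07) under LF.

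The LTB value is the mean of 2 probes that share no sequence. Probe 1 differed by 0.22 (SE 0.07, adjusted P-value 0.067) and probe 2 by 0.20 (SE 0.05, adjusted P-value 0.0186). With the brighter probe 1 alone, the adjusted P-value of the gene was 0.0645 and the call was lost. Probe 2 and its reverse complement are shown because the reverse complement looks like the coding strand, so that probe 2 may read the opposite strand, and no transcript or protein sequence was used here to settle it. Of the 3 reading frames, 1 was free of stop codons as printed and 2 were in the reverse complement. CD40 probe 1 had the same counts, so that they cannot tell the strands apart.

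LTB probe 2: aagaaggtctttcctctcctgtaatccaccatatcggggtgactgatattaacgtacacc
LTB probe 2, reverse complement: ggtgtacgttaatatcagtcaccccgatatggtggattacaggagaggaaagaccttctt

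The 2 LTB probes varied together over the 48 pigs, with group means removed (r = 0.47, rho = 0.39, permutation adjusted P-values 0.00142 and 0.00842), and r was 0.38 without the 2 pigs farthest from the median. Within slides r ran from 0.14 to 0.75.

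Another 3 spots without a gene name share 56 of 60 bases with LTB probe 1. They were chosen after their values were seen. Their line differences were 0.24, 0.25 and 0.24 on the log2 scale, with SE of 0.06 and adjusted P-values of 0.0206, 0.00792 and 0.0251. Spots reading the opposite strand at that place were well above background on 19 and 6 of 48 arrays and were not in the deposited table. The 3 spots with shared bases read the same target region as probe 1 and are no separate evidence of its direction.

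LTB lies beside TNF and LTA in the RefSeq gene order, within the major histocompatibility complex. TNF, the prototype inflammatory cytokine, had a mean of 2.45 ± 0.20 in the low and 2.35 ± 0.20 in the high line (SD, n = 24 each). The difference was 0.11 (SE 0.06, adjusted P-value 0.483), and its 3 probes overlap by 54 to 58 bases, so that they amount to 1 target region. LTA, the soluble lymphotoxin, was at −0.31 ± 0.18 and −0.29 ± 0.22 (SD, n = 24 each), a difference of −0.02 (SE 0.06). LTBR, the receptor of the lymphotoxin heterotrimer, differed by −0.02 (SE 0.09). Among these 4 genes of the lymphotoxin and TNF branch, LTB was the one that passed the test.

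Of 10 listed T cell genes 8 were measured, and all 8 had positive differences, of 0.06 to 0.21 on the log2 scale, and LCK, a kinase of T cell receptor signalling, was the one called (0.21, SE 0.06). Over all genes 6998 of 10946 had a positive line difference. The mean of the T cell markers ran from 2.19 to 2.85 in low RFI and from 2.04 to 3.02 in high RFI pigs. T cells express LTB, CD27 and CD40LG, and the part of the T cell markers in their values was not tested.

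CD27 is a receptor on T cells and memory B cells, and CD70 is its ligand. The CD27 probe is shown because an unnamed spot repeats it.

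CD27 probe: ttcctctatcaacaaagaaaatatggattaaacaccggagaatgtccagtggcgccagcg

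CD27 was at 1.40 ± 0.24 in the low and 1.18 ± 0.32 in the high line (SD, n = 24 each). The difference of 0.22 (SE 0.08) had a P-value of 0.0101, just above the limit in the criterion of the methods, and an adjusted P-value of 0.154, with 17 of 24 low RFI pigs above the high RFI median. The identical unnamed spot differed by 0.17 (SE 0.08, adjusted P-value 0.341). On 5 of 6 slides the CD27 difference was positive, from −0.06 to 0.39. CD70 differed by −0.01 (SE 0.09), and its 2 probes share 33 bases.

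CD40LG, the T cell ligand of CD40, had 1 named spot, which was well above background on 48 of 48 arrays but was not in the deposited table. An unnamed spot with the same sequence was in the table, and its values are given for that reason.

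CD40LG probe: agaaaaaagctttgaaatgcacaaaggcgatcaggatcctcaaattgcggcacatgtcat

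That spot was at −1.99 ± 0.17 in the low and −2.19 ± 0.21 in the high line (SD, n = 24 each). The difference of 0.19 (SE 0.06) had a P-value of 0.00215 and an adjusted P-value of 0.067, with 22 of 24 low RFI pigs above the high RFI median. The ligand's spot thus ran the other way from its receptor CD40, without passing the adjusted threshold. It was chosen after its value was seen.

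Of the 3 adaptors none passed the adjusted threshold. TRAF5, which carries signals of CD27, CD40 and the lymphotoxin receptor, met the criterion of the methods. Its 1 retained probe was well above background on 46 of 48 arrays.

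TRAF5 probe: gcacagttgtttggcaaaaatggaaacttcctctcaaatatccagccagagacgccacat

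TRAF5 ran from −2.76 through a median of −2.39 to −2.12 in low RFI HF pigs and from −2.87 through −2.41 to −1.96 in low RFI LF pigs. It ran from −2.94 through −2.59 to −2.35 in high RFI HF pigs and from −2.85 through −2.51 to −2.26 in high RFI LF pigs. The groups overlapped widely, and 19 of 24 low RFI pigs were above the high RFI median. The difference was 0.16 (SE 0.06, FC 1.11, P-value 0.0083, adjusted P-value 0.137), positive on 6 of 6 slides. It was 0.28 with the background-corrected signal centred on the median (P-value 0.013) or the 75th percentile (P-value 0.0153), 0.10 with normexp and quantile normalization (P-value 0.0109) and 0.14 over all non-control probes (P-value 0.0212), and the criterion of the methods was missed in each of these 4. A second TRAF5 spot was well above background on all 48 arrays but was not in the table, and a value near the background understates a fold change. TRAF3, a brake on the alternative NF-κB pathway, differed by −0.01 (SE 0.06), and TRAF4 by −0.03 (SE 0.08) from 2 probes that share 55 bases.

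**Figure D3:**
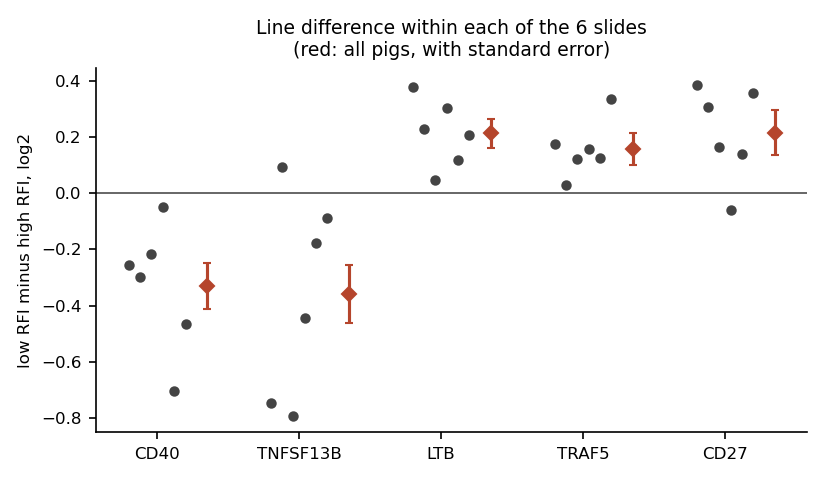
Line difference (low RFI minus high RFI, log2 scale) computed within each of the 6 slides (grey points) and over all pigs (red, with SE) for CD40, TNFSF13B, LTB, TRAF5 and CD27. All 6 slides are negative for CD40 and positive for LTB and TRAF5, whereas 1 slide has the opposite sign for TNFSF13B and for CD27.

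The death ligands and their receptors did not pass for line. FASLG, by which cytotoxic lymphocytes kill their targets, was at −1.25 ± 0.26 in low RFI and −1.34 ± 0.35 in high RFI pigs (SD, n = 24 each), a difference of 0.09 (SE 0.09). FAS, its receptor, was at 2.86 ± 0.32 and 3.04 ± 0.39 (SD, n = 24 each), a difference of −0.19 (SE 0.10, P-value 0.0744, adjusted P-value 0.475). Spots that repeat these sequences gave 0.10 (SE 0.08) for FASLG and −0.19 (SE 0.10) for FAS. TNFSF10, or TRAIL, which induces apoptosis through its own death receptors, differed by 0.003 (SE 0.09).

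TNFSF12, or TWEAK, differed by 0.10 (SE 0.11), and its receptor TNFRSF12A by 0.004 (SE 0.08). One of the 3 TNFRSF12A probes was well above background on only 38 of 48 arrays, and another lies over it by 49 bases. TNFSF8, an activation ligand of lymphocytes, differed by −0.10 (SE 0.07, adjusted P-value 0.65).

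Both TNF receptors were measured. TNFRSF1A, the death domain receptor found on most cells, was at 3.17 ± 0.22 in low RFI and 3.15 ± 0.27 in high RFI pigs (SD, n = 24 each), a difference of 0.02 (SE 0.07) from 4 probes. Its probe 2 ends in a TG repeat of 24 bases. TNFRSF1B, the receptor mainly of leukocytes, was at 1.18 ± 0.24 and 1.29 ± 0.33 (SD, n = 24 each), a difference of −0.11 (SE 0.08). Its 3 probes differed by −0.05 to −0.22, and the largest of them had an adjusted P-value of 0.354. TNFRSF21, also called DR6, differed by −0.06 (SE 0.13), with the largest SE of the members.

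Probes of a gene mostly pointed one way. Of the 13 genes with more than 1 probe, 9 had the same sign of the line difference on every probe. The probes of TNF, TRAF4 and CD70 overlap, so that their agreement is not independent. Among the 10 retained probes with an unnamed spot of the same 60 bases, the sign matched in 10 of 10. Identical spots read the same target, so that this match is no separate evidence of a gene's direction. The SD over pigs of the difference between such identical spots was 0.07 to 0.21 on the log2 scale, compared with SDs of 0.17 to 0.46 for the members themselves.

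For diet, the 24 pigs fed HF were compared with the 24 fed LF. By limma 0 of 20 members passed an adjusted P-value of 0.05, as did 0% of all genes, and 0 members passed by the analysis of variance. At an unadjusted P-value under 0.05 there was 1 member, LTB, and it missed the criterion of the methods, which 0.228% of all genes met. LTB was at 2.96 ± 0.26 (SD, n = 24) under HF and 2.83 ± 0.15 (SD, n = 24) under LF, a difference of 0.13 (SE 0.05, P-value 0.0155). By line, the HF minus LF difference of LTB was 0.25 (SE 0.07) in low RFI and 0.01 (SE 0.07) in high RFI pigs. The interaction was 0.24 (SE 0.10, P-value 0.0265, adjusted P-value 0.882).

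Of the 2 LTB probes, probe 2, the one that may read the opposite strand, met the criterion of the methods for diet. It was at 0.05 ± 0.25 under HF and −0.14 ± 0.15 under LF (SD, n = 24 each), with 18 of 24 HF pigs above the LF median. Its difference of 0.19 (SE 0.05, FC 1.14, P-value 0.000725, adjusted P-value 0.9999) met the criterion of the methods, which 0.245% of all probes met, and it was the one member probe of 41 to do so. Probe 1 differed by 0.07 (SE 0.07, P-value 0.293). The 3 unnamed spots that overlap probe 1 had HF minus LF differences of 0.12, 0.12 and 0.10, with P-values of 0.0691, 0.0488 and 0.109.

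For the interaction of line and diet, 0 of 20 members passed the adjusted threshold by limma or by the analysis of variance, as did 0% of all genes, and LTB was the 1 member with an unadjusted P-value under 0.05. The criterion of the methods was met by 0 members and by 0.219% of all genes. On the 3 unnamed spots that overlap LTB probe 1 the interactions were 0.37, 0.34 and 0.28, with P-values of 0.00425, 0.00587 and 0.0317 and adjusted P-values of 0.902. The interactions of the 20 members ran from −0.37 for TNFSF13B to 0.24 for CD40.

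The 12 spots outside the deposited table split into measured and faint ones. Those of CD40LG, FAS, TNFSF8 and TRAF5 were well above background on 48 of 48 arrays, and a TNF spot on 47. The receptors TNFRSF11A (RANK) and TNFRSF11B (osteoprotegerin), known from bone, were well above background on 0 of 48 arrays, and TNFRSF18 (GITR), a receptor of regulatory T cells, on 1. An LTA spot was so on 3 arrays. The TNFSF4 sequence was well above background on 12 arrays under that name and on 21 under the name TNFRSF4, and a second TNFSF4 probe on 4, all 4 of them from high RFI LF pigs. No level is given for these spots.

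Signalling partners of the family were compared with the members. Of 40 listed genes of receptor complexes, TRAF-binding proteins, shedding enzymes and kinases, 29 were measured. For line, 1 was called higher and 0 were called lower, compared with 1.65% and 1.64% of all genes. The one called was TRAF6, the adaptor of the CD40 and Toll-like receptor pathways, at 1.06 (SE 0.18) on the log2 scale. TRAF6 had 1 probe, at 2.19 ± 0.30 in the low and 1.13 ± 0.88 in the high line (SD, n = 24 each). The high RFI pigs were widely spread, from −0.08 to 2.35, compared with 1.54 to 2.63 in low RFI pigs. The other 28 lay between −0.25 and 0.07. ADAM17, the enzyme that sheds TNF, differed by −0.15 (SE 0.06, adjusted P-value 0.21), and TRAF3IP2, an adaptor of interleukin-17 signalling, by −0.25 (SE 0.11, adjusted P-value 0.239). The median over the 29 was −0.03. For diet and interaction 0 of 29 were called by limma, and 0 had an unadjusted P-value under 0.05.

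**Figure D4:**
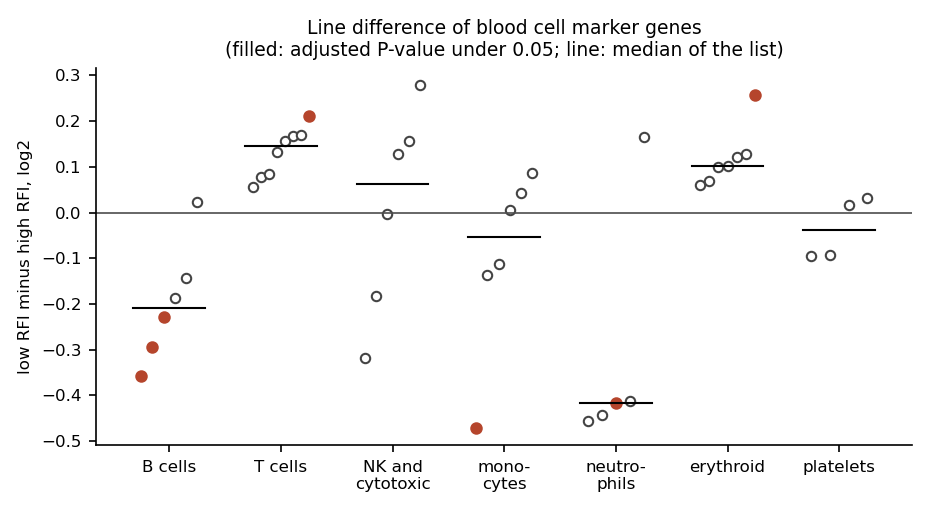
Line difference (low RFI minus high RFI, log2 scale) of the marker genes of 7 blood cell types, with filled points for an adjusted P-value under 0.05 and a line at the median of each list. The medians are −0.21 for B cells, 0.14 for T cells and −0.42 for neutrophils.

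The remaining marker lists completed the picture of the blood. Of 8 genes of natural killer (NK) and cytotoxic cells 6 were measured and 0 called for line by limma, with a median of 0.06. KLRK1 was at 0.28 (SE 0.12) and NCR1 at −0.18 (SE 0.09), each with an unadjusted P-value under 0.05, and GZMA was at −0.32 (SE 0.20, P-value 0.116). Of 10 erythroid genes 7 were measured, all with positive differences, as had 6998 of all 10946 genes. SLC4A1, the band 3 anion exchanger of red cells, was called at 0.26 (SE 0.07). Its line difference was 0.50 (SE 0.10) under LF and 0.01 (SE 0.10) under HF. The interaction of −0.48 (SE 0.15, P-value 0.00205, adjusted P-value 0.882 by limma) met the criterion of the methods. The 4 platelet genes measured of 7 had differences of −0.09 to 0.03, and 0 passed. For diet 0 genes of any list had an adjusted P-value under 0.05 by limma, and KLF1, an erythroid transcription factor, met the criterion of the methods at 0.42 (SE 0.12, FC 1.33, P-value 0.00161), the one listed gene with an unadjusted P-value under 0.05.

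Members were then set against the marker means across the 48 pigs, with group means removed so that line and diet did not enter. A total of 15 pairs were computed, counting the 2 LTB probes, and 12 had an adjusted P-value under 0.05 for r. By rho the same pairs passed, and TNFSF10 with the monocyte markers was added. These relations show which genes rise and fall together between pigs of a group.

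CD40 followed the mean of the B cell markers with r = 0.73 and rho = 0.64 (permutation P-values 1e-05, the smallest that 100000 permutations can give, adjusted 3e-05 and 5e-05). Without the 2 pigs farthest from the median r was 0.63, and within slides it ran from 0.42 to 0.91. FASLG followed the NK and cytotoxic markers with r = 0.82 and rho = 0.80 (permutation P-values 1e-05, adjusted 3e-05 and 5e-05). Without 2 pigs r was 0.75, and within slides it ran from 0.56 to 0.91.

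CD27 followed the T cell markers with r = 0.52 and rho = 0.52 (permutation P-values 0.00015 and 0.00026, adjusted 0.00025 and 0.000557), with r of 0.47 without 2 pigs and 0.26 to 0.76 within slides. LTB followed them with r = 0.39 and rho = 0.46 (permutation P-values 0.00652 and 0.00116, adjusted 0.00889 and 0.00193). For LTB r was 0.40 without 2 pigs and −0.10 to 0.78 within slides, so that 1 slide of 6 did not show the relation. With the background-corrected signal centred on the median, the r of LTB with the T cell markers was 0.29 and missed the threshold (permutation adjusted P-value 0.0533).

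TNFSF13B followed the neutrophil markers with r = 0.62 and rho = 0.58 (permutation adjusted P-values 5e-05 and 0.0001) and the monocyte markers with r = 0.56 and rho = 0.43 (permutation adjusted P-values 6.43e-05 and 0.00381). Without 2 pigs r was 0.60 and 0.46. Within slides r ran from −0.12 to 0.90 for neutrophils, positive on 5 of 6, and from 0.30 to 0.77 for monocytes.

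TNFRSF1A had r = 0.66 with the neutrophil and r = 0.65 with the monocyte markers, and rho of 0.63 and 0.61 (permutation adjusted P-values 3e-05 for both r, 5e-05 and 6e-05 for rho). Without 2 pigs r was 0.62 and 0.59, and it was positive on all 6 slides for both. TNFRSF1B had r = 0.53 with neutrophil and r = 0.70 with monocyte markers, and rho of 0.48 and 0.65 (permutation adjusted P-values 0.000187 and 3e-05 for r, 0.00109 and 6e-05 for rho). Without 2 pigs r was 0.48 and 0.66, again positive on all 6 slides. Both TNF receptors thus varied with the myeloid markers between pigs, while their line differences did not pass.

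No relation of TNFSF10 or TNFSF8 with the neutrophil markers passed (r = 0.10 and r = 0.03, rho = 0.12 and rho = −0.003, permutation adjusted P-values 0.533 and 0.829 for r, 0.453 and 0.984 for rho). With the monocyte markers TNFSF10 had r = 0.26 and rho = 0.42 (permutation adjusted P-values 0.0828 and 0.00435), with within-slide r of −0.51 to 0.99. TNFSF8 had r = 0.35 and rho = 0.36 there (permutation adjusted P-values 0.02 and 0.013), with r of 0.42 without 2 pigs and −0.23 to 0.75 within slides. Neither relation held on every slide, and with slide as a block the rho of both missed the threshold (permutation adjusted P-values 0.0947 and 0.0571).

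**Figure D5:**
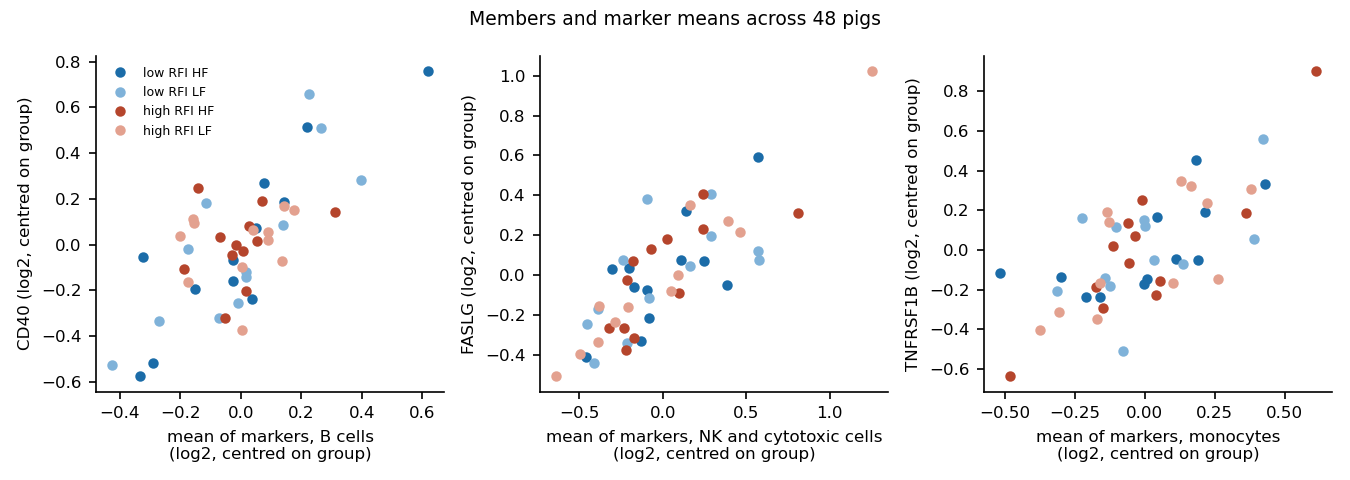
CD40 against the mean of 6 B cell markers, FASLG against the mean of 6 NK and cytotoxic markers, and TNFRSF1B against the mean of 6 monocyte markers in 48 pigs, each on the log2 scale and centred on the group mean. The points of all 4 groups rise together, with r of 0.73, 0.82 and 0.70.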

How the data were processed

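Whole blood RNA of 48 pigs was labelled with Cy3 and hybridized to a custom porcine array with probes of 60 bases. The deposited scanner files hold spot intensity as Feature Extraction 10.7.3.1 wrote it, with its calls. The authors deposited log2 values for 37113 spots that passed their quality filter. On 47 arrays these equal the log2 median intensity minus the array median, within 0.000001. The column of high RFI HF replicate 1 holds 23 such values and then 2.71 repeated 37090 times, and it was rebuilt. No local background was subtracted, which shrinks differences of faint spots. Median intensity over background was 5.91 to 15.97, and the number of arrays limits the precision.

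A gene value was the mean of the retained probes of 1 name. The effects of line and diet (coded ±0.5) and their product were fitted with limma 3.58.1 in R 4.3.3 (moderated test, BH adjustment over all genes or probes). The study's methods used an analysis of variance, tried here as an alternative. The others were other scalings, backgrounds, probe sets and priors, slide, scan day and replicate number as blocks, the brightest probe, and that column as deposited or left out. On simulated data with 200 of 10946 genes changed, line changes of 0.5 and 1 on the log2 scale were recovered in 83.5% and 100%, and interactions in 50.5% and 95%. Smaller changes were not simulated, and the largest line difference of a member gene was 0.36 in absolute size.

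Full values are given for members past an adjusted P-value of 0.05 or the criterion of the methods, and for CD40, TNFSF13B and LTB. Partner genes are named past an adjusted P-value of 0.05, and markers by size, up to 3 per list. CD27, TNF, FAS and others of the family are named by role. ADAM17, TRAF3IP2 and further markers fall outside that rule and were chosen after their values were seen. The members and lists were chosen with earlier results of these data known. Correlations used Python 3.11.15 with scipy 1.17.1. The array files name no genome build, and the RefSeq table of Sscrofa11.1 served only for names and gene order, so that no coordinates are printed. Blood cell counts were not analysed here. One B cell marker is not reported here by name.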

Additional observations from a re-analysis of the deposited data

Results flagged for a closer look

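Several spots outside the deposited log2 table carried signal. The spots named CD40LG, FAS, TNFRSF8 (TNFSF8 by its accession) and TRAF5 were well above background on 48 of 48 arrays in each case. They were singled out because they hold signal outside the main gene values, and they entered the alternative over all non-control probes. The TNFRSF8 spot has the same 60 bases as a retained probe. No test of single outlying samples was run on the groups of 12 pigs.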

How the results depend on the processing

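The column of high RFI HF replicate 1 decided the calls when it was used as deposited, with 1 value repeated. The members called for line then went from 3 to 0 and the member probes from 6 to 1, with adjusted P-values of 0.183 for CD40, 0.102 for TNFSF13B and 0.0779 for LTB. TRAF5 turned to −0.0546, FASLG to −0.0916, TNFRSF12A to −0.169 and TNFSF10 to −0.0294 on the log2 scale. Over all genes the line calls fell from 360 to 75 and the median moved from 0.03 to −0.08, with 25 of the 75 higher. Without that pig the 3 calls remained, with adjusted P-values of 0.00966, 0.0281 and 0.0188, and CD70 was at 0.000604. The brightest probe lost the call of LTB (adjusted P-value 0.0645) and turned TNFRSF12A to −0.0576 and TNFRSF1A to −0.0464. TNFRSF12A was also negative with the background-corrected signal centred on the median (−0.0454) or the 75th percentile (−0.0502), with normexp and quantile normalization (−0.0242, and −0.00133 for TNFSF10) and with probes well above background (−0.0283). In the other alternatives to the gene fit CD40, TNFSF13B and LTB stayed called. The 11 of 14 planned pairs of members and markers with an adjusted P-value under 0.05 for r numbered 11 under each of the 3 alternatives tried. With the background-corrected signal centred on the median, LTB with the T cell markers was lost (adjusted P-value 0.0533) and TNFSF10 with the monocyte markers was gained (r = 0.32, permutation adjusted P-value 0.0321), and in the other 2 alternatives the pairs were the same by r. By rho, TNFSF10 and TNFSF8 with the monocyte markers were lost with slide as a block (permutation adjusted P-values 0.0947 and 0.0571). The replicate numbers mark a place on 1 slide in each group, and the deviations of same-numbered pigs correlated by over 0.1 in 44 of 72 pairs (median 0.22, compared with −0.03 for differently numbered pigs). Of 48 pigs 22 correlated best with a pig of their own number. What a shared number means is not stated in the labels, so that the numbers were not taken as pairs. The main fit held no term for them. With the replicate number as a block the same 3 members had adjusted P-values of 0.00427, 0.0408 and 0.0105, and line calls over all genes went from 360 to 551. Faint probes limit TRAF5 and TNFRSF12A, whose values lie near the background.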
